A study of Mus musculus with 4 samples.

Results

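The cells described here were Mpo-high early granulocyte-monocyte progenitors inside a sort of LSK cells. LSK cells of the mouse lack lineage markers, carry the surface proteins Sca-1 and Kit, and include haematopoietic stem cells and their multipotent progeny. They were chosen by a gate on raw UMI counts (a UMI marks 1 captured transcript molecule): at least 1 UMI of Cebpa, at least 50 of Mpo, fewer than 50 of Elane, fewer than 5 of Prg2, and none of Ly86 or Gata2. The gate held 354 of the 34320 cells kept, or 1.03%. All mice were wild type, and single-cell RNA-seq was made from LSK cells of bone marrow after intraperitoneal Yoda1 for 2 weeks, or after vehicle. Yoda1 is a synthetic agonist of Piezo1, an ion channel gated by membrane stretch. Each treatment had 2 libraries, called control 1, control 2, Yoda1 1 and Yoda1 2, and values below follow that order. Neither the age of the mice nor whether each library came from a mouse of its own is given in the labels, and a p-value here reflects the spread of these libraries alone, which may be technical.

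Granulocyte-monocyte progenitors stand where neutrophil and monocyte fates part. The transcription factor C/EBP-alpha, encoded by Cebpa, is needed to form them, and the purine-rich-site factor PU.1 acts with it. The first stage of granulocyte differentiation is marked by transcription of the primary, or azurophil, granule proteins: the peroxidase Mpo and the serine proteases encoded by Elane (neutrophil elastase), Prtn3 (proteinase 3) and Ctsg (cathepsin G). Later neutrophil stages use Cebpe and Gfi1 and make S100a8 and S100a9, whereas Irf8 directs monocyte and dendritic fates. In the usual scheme this stage has lost Sca-1 and lies just outside the LSK gate.

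The gate on Mpo and Elane treats these granule genes as separate, although they share features of sequence, so their start sites are shown first. Elane lies 3073 bases after the end of Prtn3 on chromosome 10 (both on the plus strand, GENCODE M21, GRCm38). Promoter windows of 300 bases, from 250 before the start to 50 after it, were taken from RefSeq (GRCm38.p6) for Mpo, Prtn3, Elane, Ctsg and Cebpa, and all 5 matched by symbol. Both strands were searched for GAGGAA, a core bound by PU.1, AACGG, a core bound by Myb, TGTGGT, a core bound by Runx factors, and TTGCNNAA, a core bound by C/EBP factors. GAGGAA occurred on the coding strand in the windows of the 4 granule genes, as it did on either strand in 28.1% of 32544 promoter windows of the same length. The lines give 28 bases around the GAGGAA nearest the start in each, 5′ to 3′ on the coding strand, with the motif in capitals. Ctsg lies on the minus strand and the other 3 on the plus strand.

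Mpo (chr11:87793549-87793576): gtggagagagaGAGGAAgttgcctttgt
Prtn3 (chr10:79879561-79879588): caaactggaagGAGGAAgtgggacccac
Elane (chr10:79886216-79886243): cgtgtcccaggGAGGAAgtagggctgtg
Ctsg (chr14:56102774-56102801): tcccagaaggaGAGGAAgaaaaggaagt

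These matches began 224 bases before the RefSeq start in Mpo, 95 in Prtn3, 85 in Elane and 216 in Ctsg, and Mpo held another, 247 bases before its start. The GENCODE genes start elsewhere, at 87793581 in Mpo, 79874476 in Prtn3 and 79886247 in Elane. The printed Prtn3 stretches and the AACGG of Elane thus lie inside the GENCODE genes. Prtn3 and Elane also held AACGG on the coding strand, 55 and 50 bases before the start, a motif present in 17.4% of all windows. No printed motif overlapped another.

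Prtn3 (chr10:79879601-79879628): agccactgttcAACGGctcccggcagag
Elane (chr10:79886251-79886278): tggggcaatacAACGGcctctggttcca

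Ctsg held TGTGGT on the opposite strand, a motif present in 16.7% of windows, and Cebpa held AACGG on the opposite strand. TTGCNNAA, present in 10.8% of windows, was not found in these 5 windows. A match describes letters only.

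The kept cells numbered 7620, 7822, 9122 and 9756, and a gated cell was deeper than its library, with median UMIs of 13423, 15410, 15294 and 19552 against 11134, 9345, 10100 and 7298.5 in the other kept cells. The gated cells of a library together held 2326928, 946955, 1793938 and 329060 UMIs. A level is given as CPM, a gene's UMI count scaled by the total of that library's gated cells, and 3 UMIs were then worth 1.29, 3.17, 1.67 and 9.12 CPM. Yoda1 2, with 16 gated cells, was the thinnest library in every comparison of the treatments within the gated cells. Between 14 and 30 cell barcodes were shared by any pair of libraries, and none of them was gated.

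The label fitted the markers. UMIs count molecules and are not scaled by gene length, and by UMIs, leaving out ribosomal protein, mitochondrial and predicted genes, Mpo ranked 3rd in the gated cells, at 6533, 5092, 5291 and 4297 CPM. Prtn3 ranked 9th, at 3479, 3983, 3904 and 2729 CPM, and Ctsg 17th, at 2368, 3111, 2950 and 2124 CPM. Since Mpo and Cebpa were part of the gate their levels are a description, but Prtn3 and Ctsg were not part of it, and every gated cell had UMIs of both. A gated cell held a median of 41.5, 54, 60 and 43.5 UMIs of Prtn3, whereas cells with at least 3 UMIs of the B-lineage factor Ebf1, which should not make it, held 2, 1, 2 and 1, at median depths of 12136, 9783.5, 11318 and 13990 UMIs. For Mpo the medians in those Ebf1 cells were 4, 1, 4 and 0 UMIs, far under the gate's 50.

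Markers of other fates were low but not all absent. Cpa3, the carboxypeptidase of mast cells and basophils, was 205, 229, 119 and 191 CPM in the gated cells and 115, 145, 71.1 and 47.4 CPM in the other kept cells (mean log2 difference 0.97). The other 7 mast cell and basophil genes that the gate did not use summed with Cpa3 to 327, 399, 244 and 325 CPM, against 428, 566, 240 and 411 CPM in the other kept cells, so the list as a whole was lower in 3 libraries. The 9 genes of the T, NK and innate lymphoid list summed to at most 5.59 CPM in a library, and Cd3e, Cd3g, Il2rb and Ncr1 had no UMI in the gated cells of any library. The 14 late neutrophil genes summed to 158, 112, 119 and 72.9 CPM, with Ltf, Ngp and Itgb2l at 0 in all 4 libraries. Haematopoietic stem cell genes summed to 553, 596, 589 and 608 CPM over 10 genes, below the 685, 835, 749 and 1582 CPM of the other kept cells. Most of the sum in the gated cells was Ifitm1, an interferon-inducible membrane protein, at 440, 479, 502 and 453 CPM. Among the genes that define the sort, Kit, the stem cell factor receptor, stood at 96.7, 142, 103 and 94.2 CPM. The Sca-1 gene Ly6a stood at 75.6, 29.6, 139 and 27.4 CPM. Cd34, carried by progenitors of this stage, stood at 398, 403, 351 and 520 CPM. Piezo1, the target of Yoda1, was transcribed at 23.2, 20.1, 24.5 and 24.3 CPM.

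The gate made up 2.18% of the kept cells in control 1 (166 cells, exact 95% interval 1.86 to 2.53), 0.805% in control 2 (63 cells, 0.619 to 1.03), 1.19% in Yoda1 1 (109 cells, 0.982 to 1.44) and 0.164% in Yoda1 2 (16 cells, 0.0938 to 0.266). Control 2 lay below Yoda1 1, so the treatments overlapped. Group means were 1.49% ± 0.971 (SD, n = 2) for control and 0.679% ± 0.729 for Yoda1, and an exact permutation test (two-sided, libraries as units) gave p = 0.667. With 2 libraries a group it cannot give less than 0.333. The ratio of 0.455 between the means moved to 0.801 without Yoda1 2, to 0.844 without control 1, to 0.312 without control 2 and to 0.110 without Yoda1 1. Intervals cover counting error only.

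**Figure D1:**
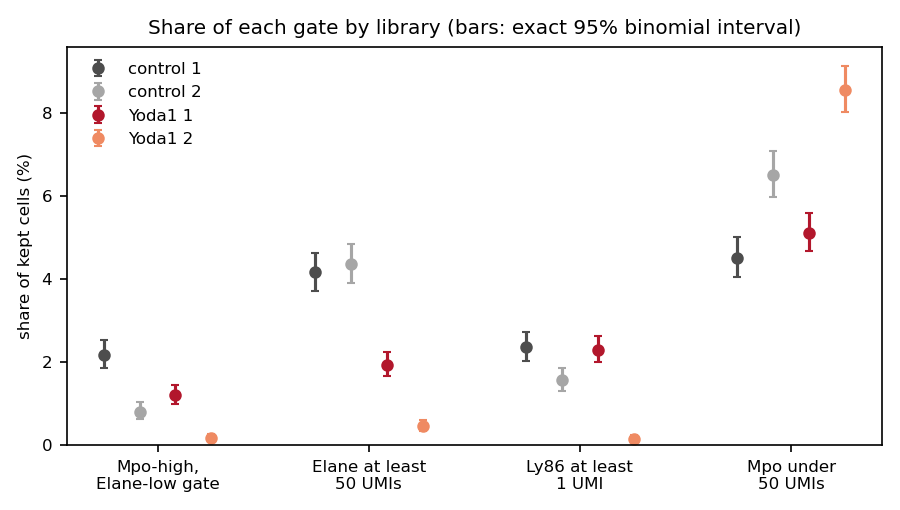
Share of kept cells (y axis, percent) in the Mpo-high, Elane-low gate and in 3 gates that differ from it by 1 condition (x axis), 1 point per library with its exact 95% binomial interval. In the first gate control 2 (0.805%) lies below Yoda1 1 (1.19%), and Yoda1 2 is lowest at 0.164%.

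Neighbouring gates, 3 in all and each with 1 condition changed, were set beside these cells as a description. Requiring at least 50 UMIs of Elane gave 878 cells, at least 1 UMI of Ly86 gave 527, and fewer than 50 UMIs of Mpo gave 2156. Median UMIs were 17431, 18486, 16784.5 and 21297.5 in the Elane-high gate. They were 18383, 19273.5, 19785.5 and 22477 in the Ly86 gate, and 8553.5, 7777, 8695 and 7423.5 in the Mpo-low gate. The gates use raw UMIs, so depth enters each contrast, and its part was not tested. The Elane-high gate held 4.16%, 4.36%, 1.93% and 0.451% of the kept cells, so both Yoda1 libraries lay below both controls (exact permutation p = 0.333, the smallest possible). Of all Mpo-high cells in the first gate and the Elane-high and Ly86 gates together, the Elane-low, Ly86-negative ones were 25.04%, 11.98%, 22.02% and 21.33%. Control 2 had the lowest proportion, and the Yoda1 libraries lay between the controls.

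The thresholds cut through a continuous range. There were 78 gated cells with 50 to 59 UMIs of Mpo and 76 otherwise like them with 40 to 49, and their Prtn3 was 2922 and 2652 CPM. At the Elane limit 35 gated cells had 40 to 49 UMIs and 29 cells just outside had 50 to 59, with Ms4a3 at 525 and 687 CPM. Cebpa is a sparse transcript, and 176 of the gated cells had a single UMI of it. Another 181 cells met every condition but had no Cebpa UMI. Those cells had 6142 CPM of Mpo, 3577 of Prtn3 and 2593 of Ctsg, against 5786, 3518 and 2563 CPM in the gated cells with 1 Cebpa UMI.

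Against all other kept cells, 644 genes with at least 100 CPM in the gated cells differed in 1 direction in all 4 libraries. Of these, 8 were over 2-fold higher in the gated cells by the mean of the libraries (1.24%) and 3 over 2-fold lower (0.466%). Genes under 100 CPM in the gated cells could not enter, so the higher and lower counts cannot be weighed against each other. Of the 8, 3 were under 100 CPM in the other kept cells. Yoda1 2, with its 16 cells, carried most of the count of higher genes. Without it 3 genes were over 2-fold higher, the gate genes Cebpa and Mpo and the chemokine Ccl9. The gate chose these cells, so differences between gates carry no test. With all 4 libraries the mean log2 difference was 1.57 for Cebpa, 1.50 for Mpo and 1.37 for Ccl9. That of Ctsg was 1.38, from 0.83, 0.90, 1.14 and 2.64 in the libraries, and that of the small GTPase Rab44 was 1.18, from 0.84, 1.02, 0.98 and 1.88. Calr, the calcium-binding chaperone calreticulin of the endoplasmic reticulum (ER), was higher by 1.06, from 0.74, 1.02, 0.93 and 1.57. Calr stood at 2086, 1884, 2059 and 1696 CPM in the gated cells and at 1249, 927, 1076 and 566 CPM in the other cells. Hp, which encodes haptoglobin, was 0.75 higher on the log2 scale.

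The Elane-high cells had more of the neutrophil genes. Against a neighbouring gate, a gene was considered if it had at least 100 CPM in either gate and 1 direction in all 4 libraries. Compared with the Elane-high cells the gated cells had 16 of 1024 genes over 2-fold higher (1.56%) and 43 over 2-fold lower (4.20%). Of those, 11 and 23 reached 100 CPM only in the gate where they were higher, so they could enter in 1 direction only and the counts do not place the cells. Irf8 is among the 11, and S100a8, S100a9, Pglyrp1 and Fcgr3 are among the 23. S100a8, a calcium-binding protein of neutrophils, was the lowest, at 21.1, 8.45, 5.57 and 3.04 CPM in the gated cells and 701, 410, 240 and 1063 CPM in the Elane-high cells, a mean log2 difference of -4.85. S100a9 (-3.15), Pglyrp1 (-2.66), an antibacterial granule protein, Ly6c2 (-2.62) and the Fc receptor gene Fcgr3 (-2.46) were also lower. The gated cells had more Ifitm1 (1.52), an interferon-inducible membrane protein, and more Irf8 (1.50). Irf8 was 223, 175, 176 and 146 CPM in the gated cells against 90.4, 47.8, 82.1 and 26.6 CPM in the Elane-high cells. The 14 primary granule genes other than Mpo and Elane, which the gates used, summed to 12303, 15172, 14086 and 10393 CPM in the gated cells and 23361, 30967, 24584 and 30458 CPM in the Elane-high cells.

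Cells with Ly86, a membrane protein of monocyte-lineage cells, had similar levels of the granule genes and more of several monocyte genes. Their 14 primary granule genes without Mpo and Elane summed to 11825, 13646, 14042 and 13031 CPM, below the gated cells in both controls, level in Yoda1 1 and above in Yoda1 2. In the gated cells 9 of 590 genes were over 2-fold higher (1.53%) and 17 over 2-fold lower (2.88%) than in the Ly86 cells. Without Yoda1 2 these were 10 and 11. Of the 9 and 17, 7 and 11 reached 100 CPM only in the gate where they were higher. Those could enter in 1 direction only, so the counts do not place the cells. Cpa3, Cd63 and Apoe are among the 7, and F13a1 is among the 11. Irf8 was 670, 586, 569 and 549 CPM in the Ly86 cells, a mean log2 difference of -1.68. F13a1, the coagulation factor XIII A chain of monocytes, was lower by a mean log2 difference of -2.56 and Ly6c2 by -2.77. In the other direction, the gated cells had more Cpa3, at 205, 229, 119 and 191 CPM against 17.8, 35.5, 8.23 and 8.95 CPM, a mean log2 difference of 2.89. The tetraspanin Cd63 (1.80) and the apolipoprotein Apoe (1.54) were higher as well. Gata2 was excluded by both gates, and the other 8 mast cell and basophil genes summed to 51.0, 109, 43.2 and 44.7 CPM in the Ly86 cells, below the gated cells in all 4 libraries.

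Cells with fewer than 50 UMIs of Mpo had more of the stem cell, lymphoid and megakaryocyte-erythroid lists. The 10 stem cell genes, Ifitm1 among them, summed to 880, 1049, 1042 and 1455 CPM there. The 11 lymphoid genes summed to 553, 904, 444 and 1073 CPM, against 192, 150, 120 and 310 CPM in the gated cells. The 15 megakaryocyte-erythroid genes summed to 1615, 1343, 1546 and 593 CPM in the Mpo-low cells and 572, 410, 359 and 331 CPM in the gated cells. Car1, an erythroid carbonic anhydrase, was 88.5, 16.9, 46.8 and 3.04 CPM in the gated cells and 510, 242, 282 and 3.89 CPM in the Mpo-low cells, so in Yoda1 2 it was near 0 in both. Dntt, the terminal transferase of lymphoid progenitors, was 15.9, 7.39, 10.6 and 63.8 CPM in the gated cells and 220, 379, 189 and 530 CPM in the Mpo-low cells. The invariant chain gene Cd74 (-2.85) and Ly6a (-1.77) were lower in the gated cells too. The gate gene Elane (2.59), Ctsg (2.50), Ms4a3 (2.48), a tetraspan membrane protein of granulocyte-monocyte progenitors, and Prtn3 (1.90) were higher. Over 2-fold differences numbered 20 of 1034 genes higher (1.93%) and 39 lower (3.77%). Of them, 10 and 32 had 100 CPM only in the gate where they were higher, so they could enter in 1 direction only. Ms4a3 is among the 10, and Dntt, Car1, Cd74 and Ly6a are among the 32.

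**Figure D2:**
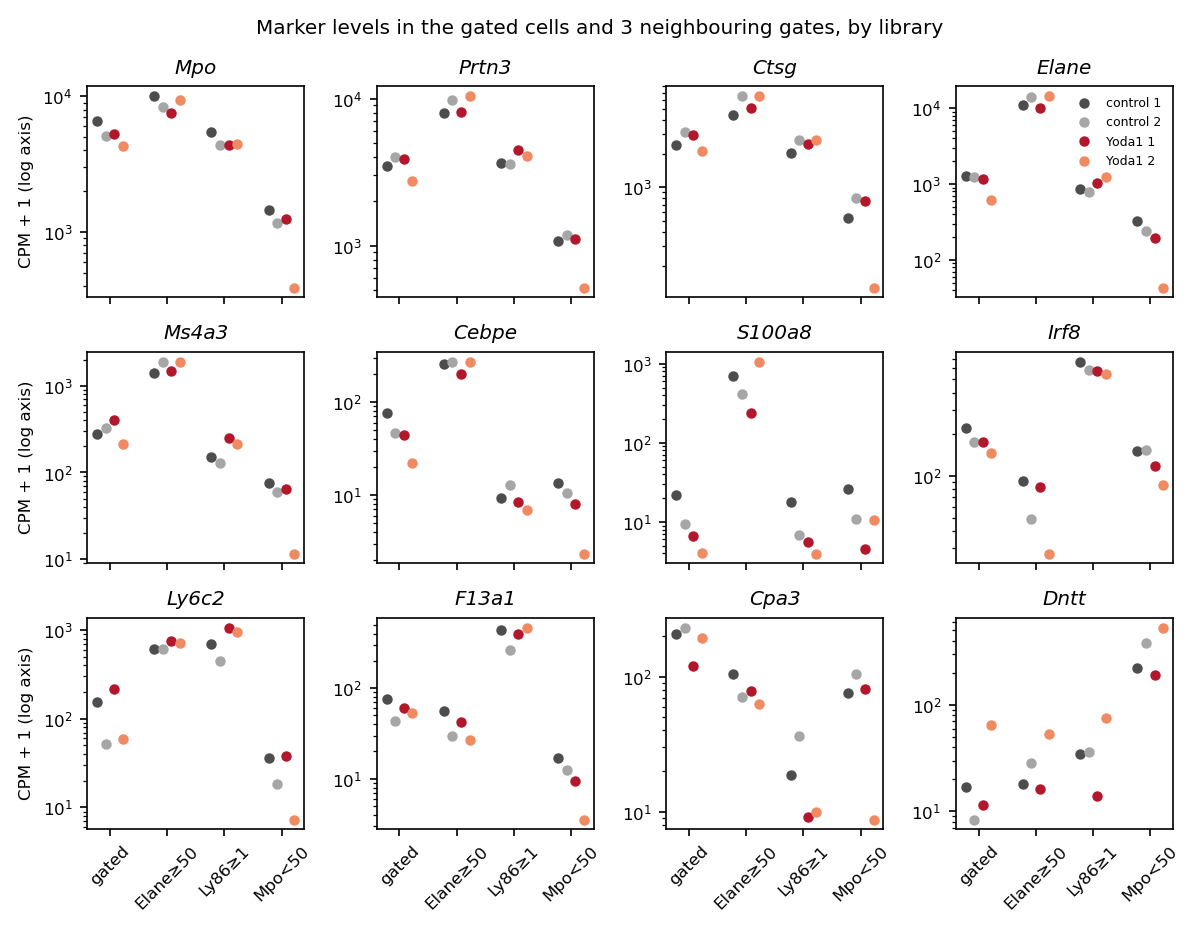
CPM + 1 (y axes, log scale) of 12 marker genes in the gated cells and in the gates with Elane of at least 50, Ly86 of at least 1 or Mpo under 50 UMIs (x axes), 1 point per library. Gated and Ly86 cells lie together for Ctsg and Prtn3 and apart for Irf8, F13a1 and Cpa3; S100a8 is at 21.1 CPM or less in the gated cells and at 240 CPM or more in the Elane-high cells.

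The gated cells were not uniform. Elane varied within the gate, so 349 cells with at least 5000 UMIs were thinned to 5000 UMIs each and divided by their Elane count into a low (at most 3 UMIs, 135 cells), a middle (101 cells) and a high class (at least 9 UMIs, 113 cells). These classes are ranges of 1 value, 140 cells lie within 1 UMI of a boundary, and no test was made. Yoda1 2 had 13, 1 and 2 cells in them, so the counts are over the other 3 libraries and each level is the mean of those 3, a choice made after the data had been seen. In these 3 the classes had 122, 100 and 111 cells, and median depth before thinning fell from low to high, at 16158, 15010 and 12956 UMIs. Mpo and Elane were both gated on raw UMIs, so at a given depth the rule bounds both, and how they vary together is partly set by it. The counts per list below are given without a share over all genes. Among the other lists, 5 of 16 glycolysis genes were higher in the high class in all 3 libraries and 0 lower. Of 24 interferon response genes, 4 were higher and 4 lower.

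Granule genes were higher together with Elane. In all 3 libraries 11 of the 14 primary granule genes other than Elane and Mpo were higher in the high than in the low class and 0 were lower, and their sum was 12015, 14485.5 and 16497 CPM from low to high. Prtn3 was 2485, 3808 and 4670 CPM from low to high in control 1, 3382, 4000 and 4875 in control 2, and 2932, 4114 and 4915 in Yoda1 1. Ms4a3 was 175 CPM in the low class and 500.4 CPM in the high class. Cebpe, the C/EBP factor of terminal granulocyte differentiation, was 7.28 CPM in the low class and 121 CPM in the high class. Irf8 ran the other way, at 262, 187 and 160.2 CPM, and was lower in the high class in 3 of 3 libraries.

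Chaperones of the ER, where granule proteins are folded, followed the granule genes. Of 16 ER chaperone and secretory genes, 14 were higher in the high class in all 3 libraries and 0 were lower, with sums of 5957, 7709 and 8370.4 CPM. Hspa5, the ER chaperone BiP, was 515, 754 and 755 CPM, and Calr 1727, 2154 and 2443 CPM. Alas1, the first enzyme of haem synthesis, was 86.0 CPM in the low class and 163 CPM in the high class; Mpo is a haem enzyme. Alas1 was the only 1 of the 8 haem synthesis genes that was higher in all 3 libraries.

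Within the gate, mitotic genes ran against Elane. In the high class 13 of 20 G2/M genes were lower in all 3 libraries and 0 were higher, with sums of 2568, 2132 and 1673 CPM. The mitotic kinesin gene Kif11 was 108 CPM in the low class and 31.6 CPM in the high class. The share of cells with a UMI of Mki67, the proliferation antigen, was 58.98%, 50.9% and 39.0% at the equal depth of 5000 UMIs. S phase genes did not follow, with sums of 2371, 2612 and 2369 CPM, and 1 of 18 was higher and 2 were lower in all 3 libraries. The limit on raw Elane also bounds which deep cells can be in the high class. Without thinning, the G2/M sums were 2449, 2237, 2585 and 2653 CPM in the Elane-high gate. In all gated cells they were 2276, 2078, 2742 and 2884 CPM. The Elane-high cells were thus higher in both controls and lower in both Yoda1 libraries, so the order within the gate did not hold across gates in the controls.

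**Figure D3:**
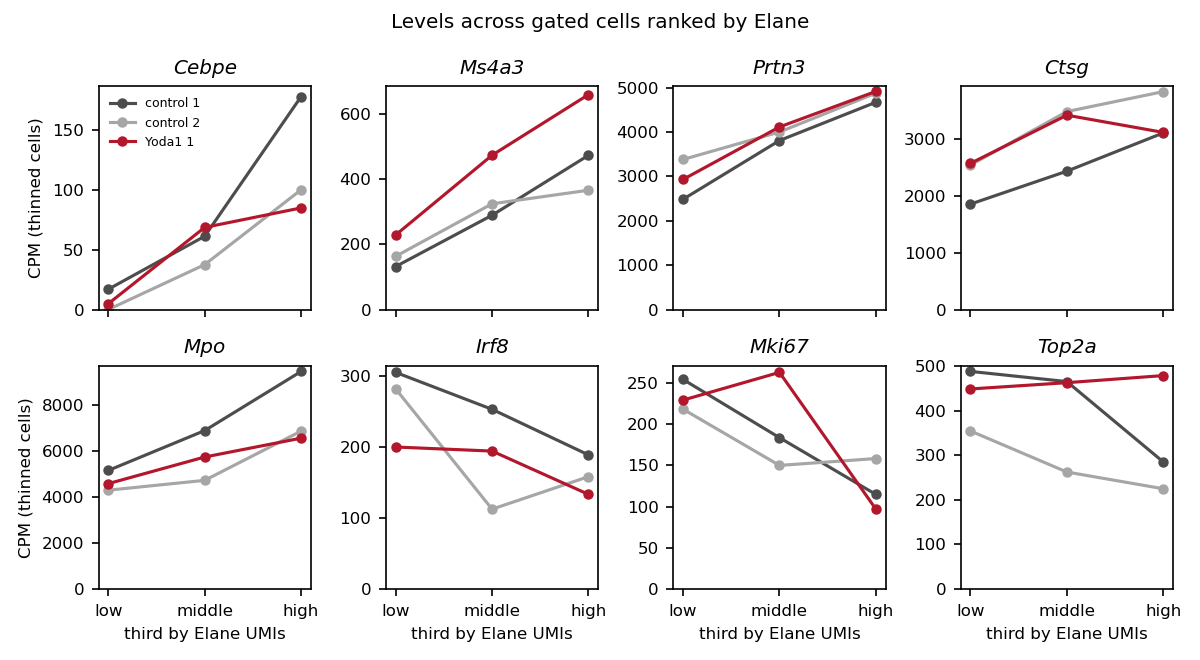
CPM (y axes, from 0) of 8 genes in gated cells thinned to 5000 UMIs and classed by their Elane count as low, middle or high (x axes), 1 line per library with at least 20 cells in the low and high classes. Cebpe, Ms4a3, Prtn3 and the gate gene Mpo are higher in the high than in the low class in the 3 libraries, and Irf8 and Mki67 are lower.

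Within the gated cells, the comparison of Yoda1 with control asked whether a gene differed between the treatments at this stage. With edgeR's quasi-likelihood test on the summed counts, 0 of 8808 genes passed an adjusted p of 0.05 (0%), after the gate genes were set aside. At an unadjusted p under 0.05 there were 113 higher genes (1.28%) and 158 lower genes (1.79%). DESeq2 and limma-voom also called 0, with 19 and 323 genes at an unadjusted p under 0.05. In simulated counts of these libraries, 53% of genes changed 2-fold and 98% of genes changed 4-fold were recovered. The changed genes were drawn only from those with higher counts, so recovery of low-count genes was not measured. The simulation also held no shifts shared by many genes of a library. When a library was left out, 22 genes passed without control 1, 13 without control 2, 7 without Yoda1 1 and 31 without Yoda1 2. Those fits tested 8463, 9852, 8540 and 9789 genes, in the same order. Since no gene passed with all 4 libraries, the following are levels and fitted differences only, and none of them is called a change.

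The main granule genes lay close between the treatments, and most myeloid transcription factors were fitted lower. Prtn3 differed by -0.13 ± 0.190 and Ctsg by -0.07 ± 0.197 (fitted log2, Yoda1 over control, ± SE), and in both the libraries overlapped. Of the 14 primary granule genes measured, that is past the filter on low counts and not gate genes, 4 were fitted higher and 10 lower, with a median of -0.11; 6 had both Yoda1 libraries below both controls, against 18.8% of all genes. Lyz2, which encodes lysozyme, was one of the 6, at 258, 307, 201 and 240 CPM (-0.34 ± 0.189). Of 16 myeloid transcription factor genes, 15 were fitted lower, with a median of -0.19; 6 had both Yoda1 libraries below both controls, and 3 had an unadjusted p under 0.05 (1.79% of all genes). Myc stood at 136, 212, 108 and 112 CPM (-0.60 ± 0.231), both Yoda1 libraries below both controls. Cebpe did so as well, at 74.8, 45.4, 43.5 and 21.3 CPM (-0.68 ± 0.297), although Yoda1 1 and control 2 were almost level. Irf8 overlapped (-0.24 ± 0.194), as did Gfi1, at 25.8, 31.7, 26.8 and 12.2 CPM (-0.20 ± 0.320). The median over all genes tested was 0.00.

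Genes of the G2/M phase were fitted higher under Yoda1 in 19 of 20 cases, with a median of 0.38. Both Yoda1 libraries lay above both controls for 12 of the 20, against 11.0% of all genes, and the summed level was 2276, 2078, 2742 and 2884 CPM. Ube2c, the ubiquitin-conjugating enzyme of the anaphase-promoting complex, was 201, 166, 278 and 274 CPM (0.62 ± 0.181), and the 2 groups did not overlap. Ccna2, cyclin A2, was 70.5, 63.4, 101 and 109 CPM (0.66 ± 0.207), and Nusap1, a spindle protein, 94.5, 84.5, 122 and 149 CPM (0.58 ± 0.202); neither overlapped. Mki67 did overlap, with control 1 level with Yoda1 1, at 217, 190, 217 and 328 CPM (0.39 ± 0.205). The histone gene H2ac8 was 306, 336, 621 and 377 CPM (0.72 ± 0.210), mostly through Yoda1 1; near-identical copies of histone genes can share reads. The list's median was 0.37 without Yoda1 2 and 0.43 without Yoda1 1. It was 0.08, with 14 of 20 fitted higher, when the gate was set after thinning every cell to 5000 UMIs. The other alternatives ran from 0.16 with at least 100 UMIs of Mpo to 0.65 with 16 cells drawn from every library. S phase genes had a median of -0.06, with 7 of 18 fitted higher.

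The neighbouring gates had smaller medians for the same G2/M genes: 0.18 in the Elane-high cells, 0.21 in the Ly86 cells and 0.11 in the Mpo-low cells. In the other kept cells the median was -0.06, with 5 of 20 fitted higher. All these values come from the same 4 libraries, and the difference between lists was not tested. The Elane class differed in 1 library: 13 of the 16 gated cells of Yoda1 2 were in the low Elane class, where the G2/M sum was highest. By class, the G2/M sums were 2492, 2182, 3029 and 3185 CPM in the low class and 2118, 2113, 2166 and 3000 CPM in the middle class, where Yoda1 1 was nearly level with the controls. In the high class they were 1315, 1625, 2079 and 700.0 CPM, with Yoda1 1 above both controls and Yoda1 2, which had 2 cells there, below both.

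At the equal depth of 5000 UMIs, a Mki67 UMI was found in 49.4%, 48.4%, 52.3% and 68.8% of 162, 62, 109 and 16 gated cells. Both Yoda1 libraries were higher, Yoda1 1 by little, and the means were 48.9% ± 0.704 (SD, n = 2) and 60.5% ± 11.6 (exact permutation p = 0.333, the smallest possible). The difference of 11.6 points was 3.41 points without Yoda1 2. Without thinning the shares were 65.7%, 71.4%, 78.0% and 81.3%. In the other kept cells the means at equal depth were 43.4% ± 6.47 and 41.2% ± 10.1, and in cells with UMIs of the stem cell genes Hlf and Procr they were 36.8% ± 12.3 and 34.6% ± 8.67. With a gate scaled to depth the Yoda1 and control shares of the gated cells overlapped (exact permutation p = 0.667).

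Immediate early genes, which respond to signals without new protein synthesis, were fitted lower under Yoda1 in 12 of 12 measured of 18, with a median of -0.65. Alternatives ran from -0.46 without control 2 to -0.91 without control 1. For 8 of the 12 both Yoda1 libraries lay below both controls, against 18.8% of all genes. Fos, the AP-1 subunit, was 25.8, 22.2, 8.36 and 9.12 CPM (-1.48 ± 0.380), and the level in Yoda1 2 was that of 3 UMIs. Jun, its partner, was 88.1, 115, 59.1 and 57.7 CPM (-0.73 ± 0.229). Dusp1, a phosphatase of MAP kinases, was 18.0, 20.1, 7.25 and 9.12 CPM (-1.26 ± 0.417). In each of the 3 the groups did not overlap. The sums of the list were 537, 674, 411 and 389 CPM. The same list had medians of -0.54 in the Elane-high cells, -0.51 in the Ly86 cells, -0.32 in the Mpo-low cells and -0.31 in the other kept cells. In the other kept cells the sums were 790, 1395, 608 and 1338 CPM, so there the treatments overlapped. They also overlapped in the Ly86 cells, at 450, 555, 346 and 498 CPM, and in the Mpo-low cells, at 961, 1722, 760 and 1487 CPM. In the Elane-high cells, at 376, 457, 259 and 338 CPM, they did not.

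Interferon response genes separated libraries rather than treatments. Their sum over 24 genes was 1386, 947, 2613 and 599 CPM, with Yoda1 1 highest and Yoda1 2 lowest. The fitted median of 0.78 over 23 genes (0.50 in DESeq2), with 21 fitted higher, came with 0 genes whose groups were apart in either direction. Isg15, a ubiquitin-like interferon-induced protein, was 70.9, 33.8, 258 and 6.08 CPM (1.62 ± 0.545). Without Yoda1 2 the list median was 1.14, and 13 of its 24 genes were among the 31 that passed. Without Yoda1 1 the median was -1.37, and Isg15 and Rtp4 passed as lower. The other kept cells showed the same order at the extremes, with 3425 CPM in Yoda1 1 and 1218 CPM in Yoda1 2.

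**Figure D4:**
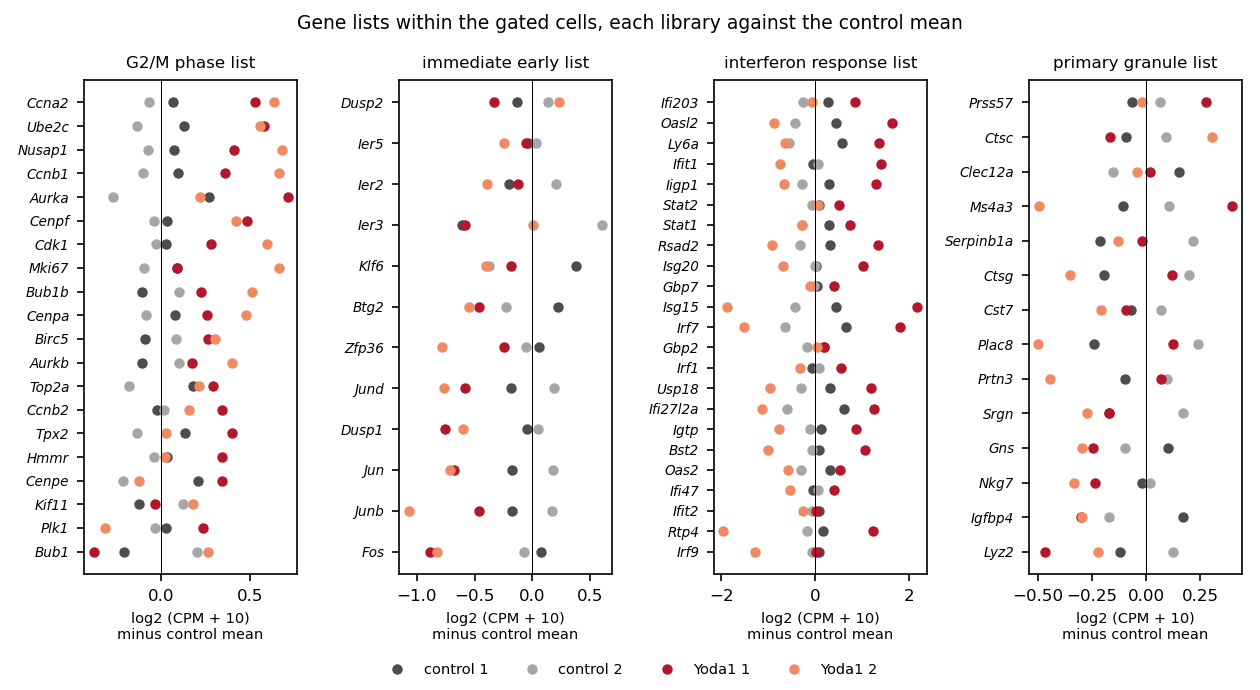
For 4 gene lists, each gene's log2 (CPM + 10) in the gated cells of a library minus the mean of the 2 controls (x axes), 1 point per library and 1 row per gene, sorted by the Yoda1 mean. For 12 of 20 G2/M genes both Yoda1 points lie to the right of both controls, for 8 of 12 immediate early genes to the left, and interferon genes set Yoda1 1 and Yoda1 2 at opposite ends.

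Genes with the smallest unadjusted p and groups apart were, among the higher, Ttc32 (16.8, 30.6, 49.1 and 42.5 CPM), Tmem258 (162, 278, 372 and 343 CPM), H2ac8, H2ac4 and Ube2c. Tmem258 encodes a subunit of the oligosaccharyltransferase of the ER. Among the lower were Fos, the long non-coding RNA Neat1 (90.2, 175, 68.6 and 42.5 CPM), Ifi27, Arf2 and the autophagy gene Rb1cc1. In Ttc32, Tmem258 and Neat1 the controls differed from each other by more than the nearest members of the 2 groups did. Eno1, the glycolytic enzyme enolase, was 136, 132, 196 and 198 CPM (0.59 ± 0.182), with close replicates and groups apart. The glycolysis list as a whole had 10 of 16 fitted higher and a median of 0.07. Piezo1 differed by 0.19 ± 0.302. Cpa3 was lower in Yoda1 1 and, less so, in Yoda1 2, at 205, 229, 119 and 191 CPM (-0.55 ± 0.218). The ER chaperone list, which had followed Elane, had 11 of 16 fitted higher and a median of 0.08, and its sums of 7081, 6755, 7653 and 6339 CPM overlapped.

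Whether the gated cells differed from their neighbours in the treatment effect was tested as an interaction with library as a block (edgeR, Benjamini-Hochberg adjusted), and the gate genes were set aside from the counts. Against the Elane-high gate 0 of 9978 genes passed (0%), with 306 at an unadjusted p under 0.05, and limma-voom also called 0. Against the Ly86 gate 2 of 10124 passed (0.0198%), Prtn3 and Car1. Against the Mpo-low gate 2 of 11160 passed (0.0179%), Pf4, which encodes platelet factor 4, and the metallothionein gene Mt2. Prtn3 was 3623, 3590, 4449 and 4049 CPM in the Ly86 cells, both Yoda1 libraries above both controls, whereas in the gated cells Yoda1 1 was level with control 2 and Yoda1 2 was lowest. The difference of -0.38 ± 0.0685 had an adjusted p of 0.00047 in edgeR and did not pass without Yoda1 2 or without control 2. The gate gene Elane was set aside because the gate limited its range. As a description, its fitted differences were -0.77 from the Ly86 cells and 0.90 from the Mpo-low cells.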

How the data were processed

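Single-cell RNA-seq was measured in 4 libraries of sorted LSK cells. The deposited matrices hold raw counts of UMIs per gene and barcode, written by Cell Ranger 7.1.0 per the file headers. The submitters' processing notes name Seurat 4.3.0, GRCm38 and mm10. The annotation release and intron handling are not given in the sources used here, and the labels name both 10x Genomics and a Singleron microwell chip, so the capture platform is uncertain.

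Barcodes with under 500 genes, under 1000 UMIs or over 10% mitochondrial UMIs were set aside, and the gate on raw UMIs was applied to the rest. Counts of the gated cells were summed per library (329060 to 2326928 UMIs), and Yoda1 was compared with control by the quasi-likelihood F test of edgeR 4.0.16, after filterByExpr and TMM scaling, with p-values adjusted over all genes by Benjamini-Hochberg. The SE is the log2 difference divided by the square root of F. Alternatives included DESeq2 1.42.0, limma-voom (limma 3.58.1), other gates, cell filters and normalization, a replicate block, and leaving out single libraries, where a lone library was assumed to vary like the other group. Intervals are exact Clopper-Pearson, 95%. Ratios between gates used a pseudocount of 10 CPM. Scrublet, run through scanpy 1.11.5, marked 575, 1, 0 and 0 cells and was taken as not having worked, so no cell was removed as a doublet; an alternative left out the highest scores. The fits were tested on simulated data over 8811 genes. Gene positions are GENCODE M21 (52081 of 55357 identifiers matched).

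Genes named are the gate and marker genes, the 5 smallest unadjusted p in each direction with groups apart and at least 10 CPM, up to 4 members of a list, and the largest ratios between gates or Elane classes. Not every member the rule took is described. Cell members, the 28 gene lists and the tests were chosen with earlier results of these data known.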

Additional observations from a re-analysis of the deposited data

Results flagged for a closer look

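Differences in the treatment effect between the gated cells and a neighbouring gate passed the test for 4 genes (edgeR interaction, library as a block, adjusted p under 0.05), and each depended on single libraries.

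For Prtn3 the effect in the gated cells minus that in the Ly86 cells was -0.38 ± 0.0685 (log2, SE). It passed without control 1 and without Yoda1 1, but not without control 2 (-0.28), without Yoda1 2 (-0.23), in limma-voom (-0.23, adjusted p = 0.0502) or with the gate scaled to depth (-0.21, adjusted p = 0.912 in edgeR). For Car1 the difference from the Ly86 cells was -1.31 ± 0.247 (adjusted p = 0.00102 in edgeR). Car1 was 88.5, 16.9, 46.8 and 3.04 CPM in the gated cells and 70.3, 13.8, 94.7 and 0 CPM in the Ly86 cells, so in both gates the treatments overlapped. It did not pass without control 1, without either Yoda1 library or with the scaled gate.

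Against the Mpo-low cells, Pf4 differed by -2.21 ± 0.321 (adjusted p = 9.33e-05 in edgeR). Its level was 37.0, 32.7, 34.0 and 6.08 CPM in the gated cells and 64.1, 183, 467 and 26.6 CPM in the Mpo-low cells, where Yoda1 1 stood apart. It did not pass without Yoda1 1 (-0.60) or without control 1 (-1.25). Mt2 differed from the Mpo-low cells by 2.92 ± 0.555 (adjusted p = 0.0157 in edgeR), at 5.16, 1.06, 14.5 and 0 CPM in the gated cells and 38.3, 12.9, 15.2 and 0.268 CPM in the Mpo-low cells. It did not pass without control 1 (3.52) or without Yoda1 1.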

How the results depend on the processing

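The share of kept cells in the gate kept its direction under every alternative run. So did the difference in mean Mki67 share, run with thinning to 3000 UMIs, without thinning, with the gate scaled to depth and with 1 library left out. With the scaled gate Yoda1 1 (44.9%) lay below control 1 (50%), and Yoda1 2, at 66.7%, had 6 cells. The Mki67 share was not run with the gate set after thinning, where the fitted Mki67 difference changed sign, nor with the other gates and cell filters. The 0 calls between treatments held under 13 of 14 alternatives that used all 4 libraries. Without a filter on low counts 8 genes passed, and with 1 library left out 7 to 31. Interaction counts without a filter were 1 gene against the Elane-high gate and 8 against the Mpo-low gate. With the gate scaled to depth they were 4 and 5. In limma-voom 1 gene passed against the Ly86 gate. With 1 library left out the counts ran from 0 to 17 against the Elane-high, 0 to 5 against the Ly86 and 2 to 21 against the Mpo-low gate.

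Counts of genes over 2-fold from other cells, recomputed without Yoda1 2 as a choice made after seeing the data, moved from 8 to 3 (higher than in the other kept cells) and from 17 to 11 (lower than in the Ly86 cells).

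Signs turned for several small differences. With the gate set after thinning, Ctsg was 0.18, Prtn3 0.24, Lyz2 0.10, Mki67 -0.14 and Cd34 -0.17 (log2). With the gate scaled to depth Ctsg was 0.021, Piezo1 -0.51, Cd34 -0.038 and the Mt2 interaction -2.56. Ctsg was 0.0018 with Elane under 25 and Gfi1 0.083 with Mpo of at least 100. Leaving out 1 library moved Ctsg from -0.35 to 0.16, Prtn3 from -0.44 to 0.11, Kit from -0.48 to 0.10, Cd34 from -0.15 to 0.39 and Isg15 from -3.18 to 2.33. The Car1 interaction ran from -1.33 to 22.3 and that of Mt2 from -15.0 to 3.52; the extremes are fits with a group at 0 UMIs and are no bounds. The cause of the other turns was not tested.

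In the gated cells the deviations of same-numbered libraries were hardly correlated (0.0619 over 8811 genes). This value includes the 16 cells of Yoda1 2 and cannot exclude pairing. Pairing was not tested in the other kept cells. Immediate early sums there were 790 and 608 CPM in control 1 and Yoda1 1. They were 1395 and 1338 CPM in control 2 and Yoda1 2. Sums of mitochondrially encoded genes did not follow the number, at 11254.5, 10555.5, 9136 and 11789 CPM in the usual order. With the replicate number as a block 0 genes passed in the gated cells, 318 at an unadjusted p under 0.05. Only 217 of the 354 gated cells were in the scaled gate, and 117 in the thinned one. The 16 cells of Yoda1 2 limit every comparison within the gated cells: 10 CPM there are 3.29 UMIs.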
